A study of Homo sapiens with 12 samples.

Results

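The genes described here are 8 members of the caspase cascade and its brakes: the initiator caspases CASP8, CASP9 and CASP10, the executioner caspase CASP6, the apoptosome genes APAF1 and DIABLO, and the inhibitor of apoptosis (IAP) genes BIRC2 and BIRC3. They were chosen by name from the count table, which holds 57187 genes, and each name matched 1 row. All 8 passed the filter on low counts that left 17211 genes for testing. RNA sequencing had been done on 12 libraries of 4 established human lines, of which MDA-MB-231 and HCC1954 come from breast cancer and OVCAR8 and SKOV3 from ovarian cancer, with 1 library per line for each of 3 conditions. The conditions were the parental line, cells stably transfected with wild type SIVA (SIVA-WT) and cells stably transfected with the mutant SIVA-D160N. SIVA is a pro-apoptotic protein that binds death receptors of the tumour necrosis factor family, and the transgenes were driven by a CMV promoter in mixed, hygromycin-selected pools of cells rather than in single clones. The labels give the control libraries as parental and untreated, whereas the text of the study speaks of cells carrying an empty vector, so it is not settled whether the controls went through transfection and selection. MDA-MB-231 is named in the study's text as a luciferase-expressing derivative, which all 3 of its libraries would share.

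Caspases are proteases that are made as inactive precursors. Ligand-bound death receptors gather CASP8 and CASP10 into a complex that switches them on, while damage inside the cell releases cytochrome c from mitochondria, which assembles APAF1 into the apoptosome and activates CASP9. Both routes end in executioner caspases, among them CASP6, which cuts nuclear lamins. The proteins of BIRC2 and BIRC3 (cIAP1 and cIAP2) are ubiquitin ligases of the receptor complexes that keep signalling turned towards NF-κB and survival, BIRC3 is itself a well known NF-κB target, and DIABLO (Smac) leaves mitochondria to block IAP proteins.

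BIRC3 and BIRC2 lie next to each other on chromosome 11, 7.8 kb apart, and their promoters are shown because these paralogs had the largest and the smallest differences between lines among the 8 genes. Each sequence is the RefSeq window (GRCh38.p14, plus strand) from 250 bases before to 50 bases after an annotated start, in lower case, with matches to the 10-base κB consensus, the binding motif of NF-κB, in capitals. Both strands were searched.
BIRC3, chr11:102317234-102317533: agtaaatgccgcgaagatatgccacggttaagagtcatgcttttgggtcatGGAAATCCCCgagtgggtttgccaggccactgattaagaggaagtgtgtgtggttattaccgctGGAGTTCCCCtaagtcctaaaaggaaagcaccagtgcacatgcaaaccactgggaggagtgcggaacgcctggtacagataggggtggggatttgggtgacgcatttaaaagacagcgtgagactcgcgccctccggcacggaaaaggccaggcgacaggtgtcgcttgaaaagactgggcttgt
BIRC2, chr11:102346964-102347263: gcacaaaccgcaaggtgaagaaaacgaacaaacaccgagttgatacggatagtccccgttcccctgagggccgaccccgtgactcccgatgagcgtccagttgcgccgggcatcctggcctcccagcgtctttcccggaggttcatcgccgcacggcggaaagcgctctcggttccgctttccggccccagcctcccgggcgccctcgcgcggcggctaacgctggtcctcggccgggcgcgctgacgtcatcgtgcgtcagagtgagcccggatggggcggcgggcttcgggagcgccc

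The BIRC3 window held 2 matches, beginning at -199 and -135 from the start and read on the opposite strand, where they are GGGGATTTCC and GGGGAACTCC. Of the 35116 promoter windows of the same length, 11.3% held at least 1 match and 2.04% held at least 2. The table had 14 windows for 7 of the 8 genes (CASP10 is not among them), and BIRC3 was the only one of these genes with a match. A match is a description of the letters in the window and not a measured binding site. The BIRC3 window was 53.3% G and C, against 68.7% for that of BIRC2.

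Total counts per library ran from 35791455 to 45890398, so that a gene without counts is limited to at most 0.0856 CPM (counts scaled to the library size), taking 3 counts as the limit and covering counting error only. CPM values here always use the TMM-scaled library size. SIVA1 stood at 28.1 to 66.3 CPM in 3 parental libraries and at 68.2 to 177 CPM in the transfectants of the same lines. In HCC1954 it had 0 counts in the parental library (at most 0.072 CPM), 38.2 CPM with SIVA-WT and 26.5 CPM with SIVA-D160N. The count of exactly 0 sets the HCC1954 parental library apart, and differences between conditions singled out below are therefore also given without that line where a value could be fitted. Several lineage markers separated the lines. ERBB2 was at 5740 to 12200 CPM in HCC1954 and SKOV3 and at most 78.1 CPM in the other lines. CDH1 and KRT5, both epithelial, were above 1 CPM only in HCC1954. Other epithelial markers did not follow them. KRT8 and KRT18 were at 189 CPM or more in every line, and EPCAM was at 206 to 248 CPM in HCC1954 and 18.6 to 21.3 CPM in OVCAR8. Of the mesenchymal markers, VIM and ZEB1 were lowest in HCC1954, while the ranges of FN1 overlapped between lines. PAX8, an ovarian tract marker, was at 61.1 to 243 CPM in the ovarian lines and at most 3.43 CPM in the breast lines. WT1, listed beside PAX8, did not separate the tissues. It was at 5.55 to 8.06 CPM in HCC1954, 5.89 to 6.83 CPM in OVCAR8 and 0.397 to 1.11 CPM in SKOV3. The breast marker TFAP2B was at most 0.12 CPM in the breast lines, and GATA3 was at 42.8 to 49.7 CPM in HCC1954 but at 1.79 to 2.86 CPM in MDA-MB-231. Of the markers of other cells, PTPRC and CD3E did not exceed 0.627 CPM anywhere, while the endothelial marker PECAM1 was at 32.6 to 62.8 CPM in HCC1954. Its part in the HCC1954 values was not tested.

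**Figure D1:**
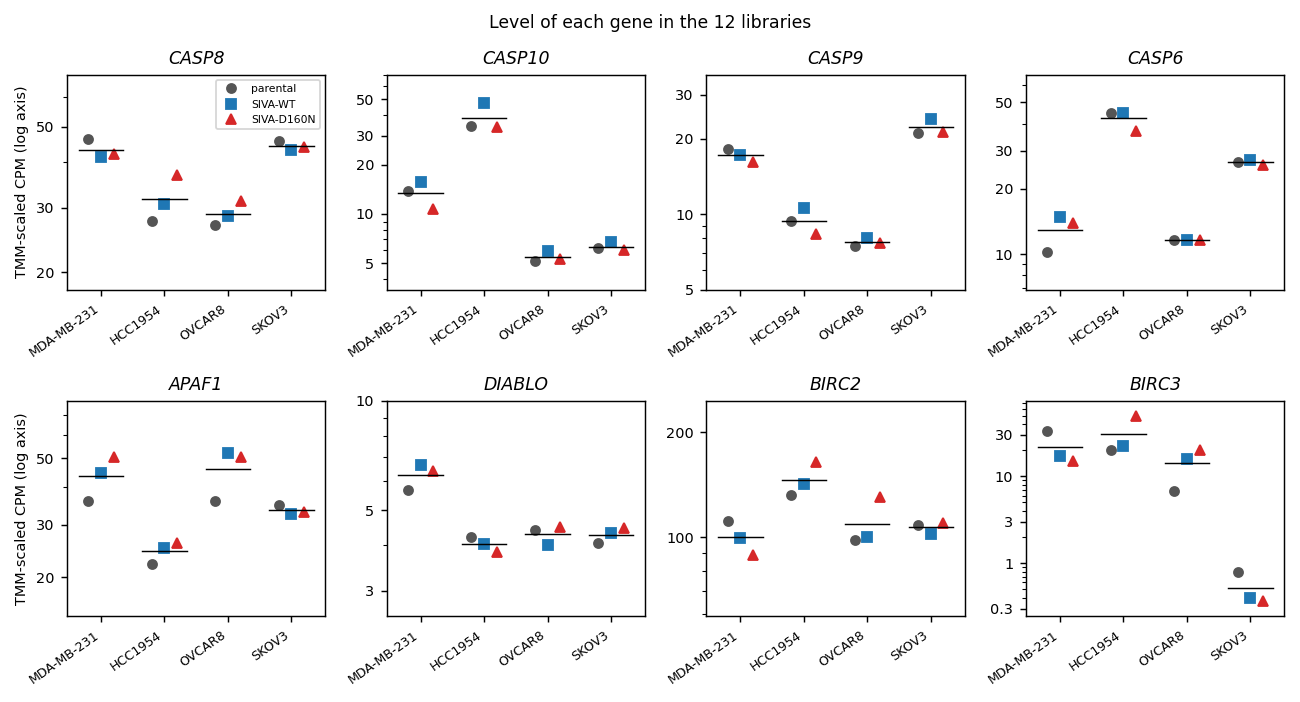
Level of each gene in TMM-scaled CPM (log axis, own range per panel) in the 12 libraries, by line. Each point is 1 library (circle parental, square SIVA-WT, triangle SIVA-D160N) and the bar is the mean of the 3 libraries of a line. For 7 genes the libraries of a line lie close together, while BIRC3 spreads within every line and drops below 1 CPM in SKOV3.

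The first question was how much of this machinery each line carries. Divided by exonic length, which allows genes to be set side by side, BIRC2 was the most abundant at a median of 24.1 CPM per kb over the 12 libraries, followed by CASP6 at 10.5, CASP8 at 5.41, APAF1 at 4.57, CASP9 at 2.53, BIRC3 at 2.2, CASP10 at 0.982 and DIABLO at 0.627 CPM per kb. The lengths are the merged exons of GENCODE 44, lifted to another build than that of the files, and serve only this comparison. The low value of DIABLO may be incomplete, because it shares exonic bases with other annotated genes on the same strand, 31.5% of its bases in all. The model that covers 31.5%, ENSG00000284934, is not among the counted genes. Another protein-coding gene model without a symbol, ENSG00000256861, covers 16.4% of the DIABLO bases and was counted, with 0 counts in every library. How reads falling on both genes were counted is not given in the sources used here, so DIABLO is compared only with itself.

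CASP10 and CASP8, the death receptor initiators, sit 4.1 kb apart on chromosome 2 (CASP10 chr2:201183141-201229406, CASP8 chr2:201233463-201287711) and were distributed differently over the lines. CASP10 was at 34.3 (parental), 47.1 (SIVA-WT) and 33.7 (SIVA-D160N) CPM in HCC1954 and at 13.8, 15.7 and 10.8 CPM in MDA-MB-231. It was at 5.18, 5.97 and 5.31 CPM in OVCAR8 and at 6.2, 6.72 and 6.03 CPM in SKOV3. All 6 breast libraries were above all 6 ovarian libraries, the only one of the 8 genes for which the tissues did not overlap. With 2 lines per tissue, 14.2% of all tested genes had ranges that did not overlap, so this is not an unusual pattern. The mean in HCC1954, 38.4 ± 7.6 CPM (SD, n = 3), was 6.99 times that of OVCAR8, and the difference was 2.79 ± 0.14 on the log2 scale (SE, edgeR quasi-likelihood test, adjusted p = 1.6e-08). OVCAR8 and SKOV3, the neighbours at the low end, did not differ beyond their spread (log2 fold change -0.2, 95% interval -0.5 to 0.09, adjusted p = 0.196).

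CASP8 varied far less. Its line means were 44.3 ± 1.31 CPM in SKOV3, 43.3 ± 2.55 CPM in MDA-MB-231, 31.8 ± 4.7 CPM in HCC1954 and 28.9 ± 2.22 CPM in OVCAR8 (SD, n = 3 each), a range of 1.53 times. SKOV3 and MDA-MB-231 formed an upper pair that did not differ (log2 fold change of MDA-MB-231 over SKOV3 -0.03, interval -0.28 to 0.21), and HCC1954 and OVCAR8 a lower pair that did not either (0.13, interval -0.12 to 0.38). The remaining 4 line pairs, 1 upper and 1 lower line each, all passed the test, with adjusted p from 0.000507 to 0.00392. Without the SIVA-WT libraries the calls of HCC1954 against MDA-MB-231 and SKOV3 were lost (adjusted p = 0.0708 and 0.0594). HCC1954 thus combined the highest CASP10 with a CASP8 level in the lower pair, and its CASP10 and CASP8 levels per library were 33.7 to 47.1 and 27.7 to 36.9 CPM. These values are not divided by exonic length and do not rank the genes against each other.

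Of the mitochondrial route, CASP9 (chr1:15491401-15524912) split the lines into the same pairs. It was at 21.2, 24.1 and 21.4 CPM in the parental, SIVA-WT and SIVA-D160N libraries of SKOV3 and at 18.3, 17.2 and 16.1 CPM in MDA-MB-231. In HCC1954 it was at 9.36, 10.6 and 8.31 CPM and in OVCAR8 at 7.48, 8.07 and 7.67 CPM. The upper and the lower pair of lines do not overlap. SKOV3 was above OVCAR8 by 2.87 times (log2 fold change of OVCAR8 over SKOV3 -1.52 ± 0.12, adjusted p = 9.76e-07), and SKOV3 was above MDA-MB-231 by 1.29 times (adjusted p = 0.0177). The latter call was lost in 3 of 7 alternatives: with all genes of at least 1 count, without the SIVA-WT libraries and without the SIVA-D160N libraries (adjusted p up to 0.234). HCC1954 over OVCAR8 missed the threshold at 0.28 ± 0.12 (adjusted p = 0.0628).

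APAF1 (chr12:98645290-98735433), the scaffold that CASP9 needs, followed another order. It was at 36, 51.9 and 50.4 CPM (parental, SIVA-WT, SIVA-D160N) in OVCAR8, at 36, 44.5 and 50.5 CPM in MDA-MB-231, at 34.9, 32.6 and 33 CPM in SKOV3 and at 22.2, 25 and 26 CPM in HCC1954. The 3 HCC1954 libraries were below all others, and OVCAR8, MDA-MB-231 and SKOV3 had nearly equal parental levels. OVCAR8 and MDA-MB-231 did not differ beyond their spread (adjusted p = 0.623), SKOV3 was below both (adjusted p = 0.00941 and 0.0248), and HCC1954 was below each of the other lines by 0.47 to 0.91 on the log2 scale. The calls of SKOV3 below OVCAR8 and MDA-MB-231 were lost without the SIVA-WT libraries and without the SIVA-D160N libraries, and that of HCC1954 below SKOV3 without the SIVA-WT libraries (adjusted p = 0.056). DIABLO (chr12:122207662-122227456) was at 6.26 ± 0.512 CPM in MDA-MB-231 and between 4.03 and 4.31 CPM on average in the other lines, with 134 to 264 counts per library. MDA-MB-231 was above each of them by 1.45 to 1.55 times (adjusted p 0.00399 to 0.0116), whereas the other lines did not differ beyond their spread (adjusted p 0.61 to 0.964). Without the SIVA-WT libraries all 3 of these calls were lost, and without the SIVA-D160N libraries those against OVCAR8 and SKOV3.

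CASP6 (chr4:109664388-109709767), the executioner among the 8, was at 44.7, 44.8 and 37.1 CPM (parental, SIVA-WT, SIVA-D160N) in HCC1954 and at 26.7, 27.2 and 25.9 CPM in SKOV3. It was at 10.3, 14.8 and 13.9 CPM in MDA-MB-231 and at 11.7, 11.6 and 11.6 CPM in OVCAR8. HCC1954 stood above SKOV3, which stood above the other lines, without overlap. HCC1954 exceeded OVCAR8 by 3.63 times in mean CPM (log2 fold change 1.86 ± 0.14, adjusted p = 4.65e-07) and SKOV3 by 1.59 times (adjusted p = 0.00108). MDA-MB-231 and OVCAR8 did not differ beyond their spread (0.15, interval -0.15 to 0.46).

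Among the IAP genes, BIRC2 (chr11:102347214-102378670) had the narrowest range of line means of the 8. They ran from 100 ± 11.3 CPM in MDA-MB-231 to 146 ± 16.6 CPM in HCC1954 (SD, n = 3 each). HCC1954 was above the other lines by 1.34 to 1.45 times (adjusted p 0.0031 to 0.0124), and MDA-MB-231, OVCAR8 and SKOV3 did not differ beyond their spread (adjusted p 0.456 to 0.876). Without the SIVA-WT libraries the calls against OVCAR8 and SKOV3 were lost (adjusted p = 0.132 and 0.0976). BIRC3 (chr11:102317484-102339403) was at 33.2, 17.2 and 14.9 CPM (parental, SIVA-WT, SIVA-D160N) in MDA-MB-231, at 19.9, 22.2 and 49.2 CPM in HCC1954, at 6.8, 15.7 and 19.9 CPM in OVCAR8 and at 0.795, 0.403 and 0.369 CPM in SKOV3. SKOV3 lies far below the others, on only 30, 18 and 15 counts, which still exceed the limit of 3 counts in each library. BIRC3 was 26.7 to 55.9 times higher in the other lines than in SKOV3 (log2 fold changes 4.74 to 5.8, SE 0.59, adjusted p 5.41e-06 to 2.55e-05). The other lines overlapped with each other, with SDs of 45.8% to 53.5% of the mean, and no pair of them passed the test. HCC1954 over OVCAR8 came closest, at 1.06 ± 0.44 (adjusted p = 0.0502), and passed in 3 of 7 alternatives. MDA-MB-231 over HCC1954 was called without the parental libraries (log2 fold change -1.07, against -0.39) and had the opposite sign without the SIVA-D160N libraries (0.25). MDA-MB-231 over OVCAR8 was called without the SIVA-D160N libraries (1.15, against 0.68) and with all genes of at least 1 count (0.69), and had the opposite sign without the parental libraries (-0.13).

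**Figure D2:**
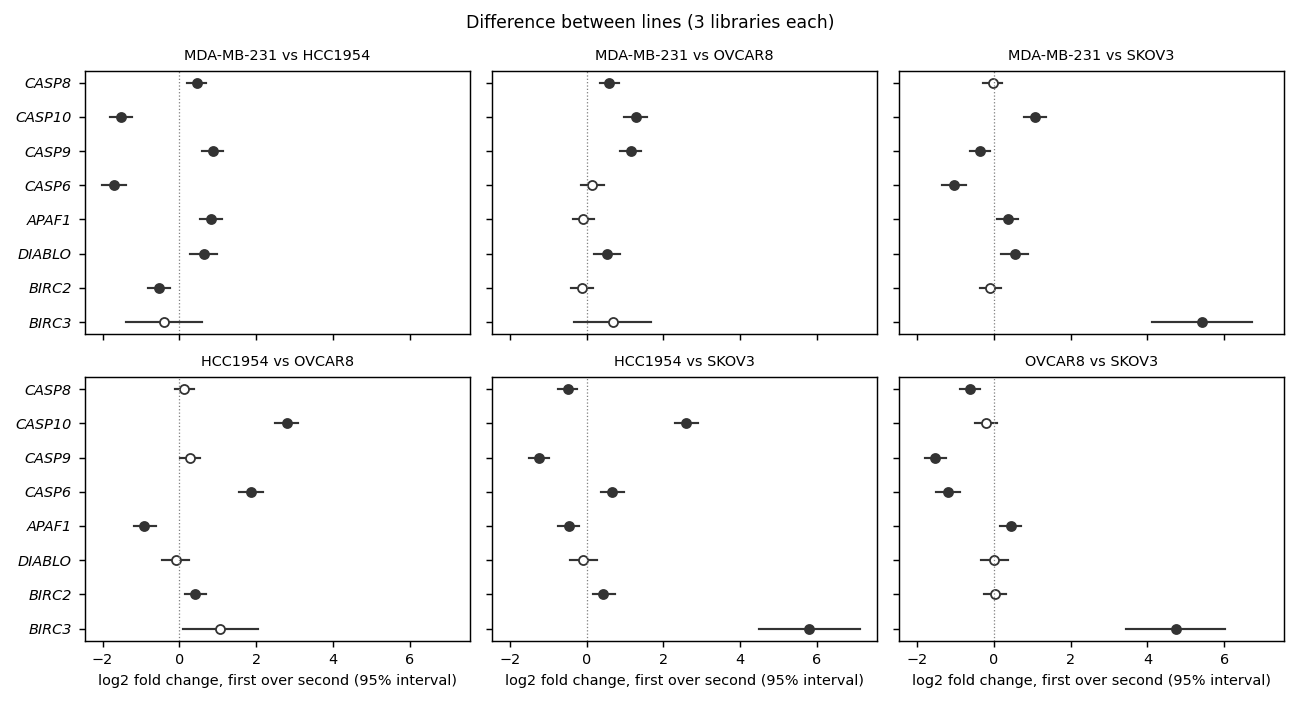
Log2 fold change of each gene between each pair of lines (first over second) with its 95% interval, from edgeR over 12 libraries. Filled points passed an adjusted p under 0.05, open points did not. BIRC3 lies 4.74 to 5.8 above SKOV3 in the 3 other lines, CASP10 2.79 higher in HCC1954 than in OVCAR8, and DIABLO and BIRC2 have 3 filled points each.

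Counting calls at an adjusted p under 0.05, 33 of the 48 gene and line pair combinations passed: 5 of 6 line pairs for CASP10, CASP9, CASP6 and APAF1, 4 for CASP8 and 3 for DIABLO, BIRC2 and BIRC3. By line pair, 7 of the 8 genes were called between MDA-MB-231 and HCC1954, where 70.8% of all tested genes were, and 4 between MDA-MB-231 and OVCAR8 (all genes 64.1%). The counts were 6 between MDA-MB-231 and SKOV3 (all genes 68.5%), 4 between HCC1954 and OVCAR8 (70.5%), 7 between HCC1954 and SKOV3 (68.9%) and 5 between OVCAR8 and SKOV3 (70.2%). The 8 genes therefore differed between lines about as often as genes in general, and the range over lines exceeded the median of all tested genes, 3.03 times, for CASP6, CASP10 and BIRC3 and lay under it for the other 5. The 3 libraries of a line come from one line under 3 conditions, so these tests compare the cultures at hand. In RNA from whole cultures, fewer cells that express a gene and less RNA per cell cannot be told apart.

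The second question was whether SIVA-WT or SIVA-D160N shifted these genes. In the fit over the 4 lines, which allows for the level of each line, 0 of the 8 genes passed the thresholds of the study (adjusted p under 0.05 with a log2 fold change of 1.5 or more in either direction) in any of the 3 comparisons. Among all tested genes 0% passed for SIVA-WT vs parental, 0.00581% (1 gene) for SIVA-D160N vs parental and 0% for SIVA-D160N vs SIVA-WT. The study reported far more genes for SIVA-D160N against its controls. Its text does not name the terms of its model, so the thresholds are shared but the fits may differ. At an unadjusted p under 0.05 edgeR gave 0 of the 8 genes for SIVA-WT vs parental (all genes 2.54%), 1 for SIVA-D160N vs parental (all genes 14.2%) and 1 for SIVA-D160N vs SIVA-WT (all genes 6.88%). DESeq2 and limma-voom also called 0 of the 8 in each comparison.

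The 95% intervals bound the mean difference over the 4 lines. They do not bound the response of a single line, and opposite responses of lines can cancel in the mean. Outside BIRC3, no interval reached beyond -0.6 or 0.52 on the log2 scale. BIRC3 was far less certain, with -0.13 (interval -1.07 to 0.81) for SIVA-WT vs parental, 0.32 (interval -0.63 to 1.27) for SIVA-D160N vs parental and 0.45 (interval -0.45 to 1.36) for SIVA-D160N vs SIVA-WT. The BIRC3 difference between SIVA-D160N and parental turned to -0.16 without HCC1954 and to -0.11 without OVCAR8, and rose to 0.99 without MDA-MB-231. Its direction therefore rests on which lines are included. The difference between SIVA-D160N and SIVA-WT was 0.1 without HCC1954 and 0.49 to 0.61 without any other line.

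APAF1 and CASP10 were the genes under an unadjusted p of 0.05, and neither held after adjustment over all genes. APAF1 was at 32.3 ± 6.73 CPM in the parental libraries, 38.5 ± 12 CPM with SIVA-WT and 40 ± 12.4 CPM with SIVA-D160N (SD, n = 4 lines), ranges that overlap. The difference between SIVA-D160N and parental was 0.28 ± 0.11 on the log2 scale (unadjusted p = 0.0297, adjusted p = 0.305) and APAF1 was higher in 3 of 4 lines. The exception was SKOV3, and without HCC1954 the difference was 0.29. CASP10 was lower with SIVA-D160N than with SIVA-WT in 4 of 4 lines, by 0.34 ± 0.11 in log2 units (log2 fold change -0.34, unadjusted p = 0.0116, adjusted p = 0.719). Without HCC1954 it was -0.29. Against the parental libraries CASP10 was higher with SIVA-WT in 4 of 4 lines (0.25, edgeR unadjusted p = 0.0535). It was lower with SIVA-D160N in 3 of 4 (-0.1, edgeR unadjusted p = 0.408). Without HCC1954 the values against parental were 0.17 and -0.12. These comparisons share libraries and are not independent of each other.

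The other genes gave smaller values. CASP8 was higher with SIVA-D160N than with SIVA-WT in 4 of 4 lines (0.12, interval -0.1 to 0.33) and CASP9 lower in 4 of 4 (-0.17, interval -0.4 to 0.06), both with an adjusted p of at least 0.774. Without HCC1954 they were 0.06 and -0.12. DIABLO, the IAP antagonist, stayed between 0.02 and 0.05, CASP6 between -0.11 and 0.12 and BIRC2 between -0.03 and 0.14 in the 3 comparisons. Whether the responses differed between ovarian and breast lines was tested as an interaction, and none of the 8 genes passed (adjusted p = 1 for each gene in each comparison). With 2 lines per tissue the intervals are wide, for example -0.34 to 0.72 for CASP10 and -1.44 to 2.7 for BIRC3 in SIVA-D160N vs parental.

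**Figure D3:**
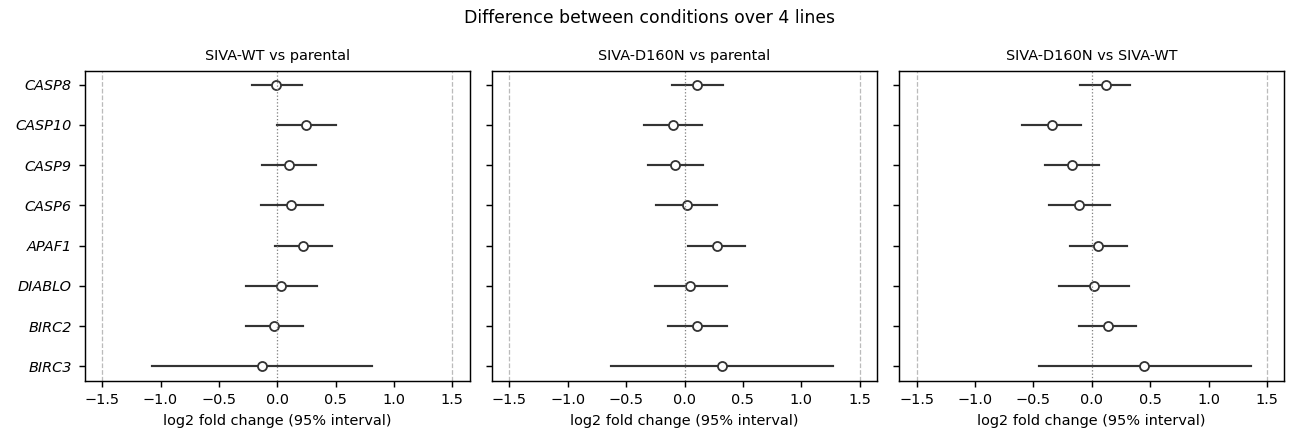
Log2 fold change of each gene between conditions over the 4 lines, with its 95% interval. The dashed lines mark the threshold of 1.5 in either direction. All 24 points are open, meaning that none passed, and only the BIRC3 intervals extend past 1.

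Within a line each condition is 1 library, so that ratios have no replicate check and are given as descriptions. Of the 96 ratios of the 8 genes, 6 were past 2-fold and all of these were of BIRC3. For the other 7 genes the log2 ratios ran from -0.54 (CASP10 in MDA-MB-231, SIVA-D160N vs SIVA-WT) to 0.53 (APAF1 in OVCAR8, SIVA-WT vs parental). The share of all tested genes past 2-fold was 4.57% for SIVA-WT vs parental, 6.82% for SIVA-D160N vs parental and 3.83% for SIVA-D160N vs SIVA-WT in MDA-MB-231. In the same order it was 4.49%, 10.2% and 8.78% in HCC1954, 3.16%, 3.51% and 2.78% in OVCAR8, and 5.79%, 8.74% and 3.09% in SKOV3.

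BIRC3 differed from its parental level in opposite directions in different lines. In OVCAR8 it was 2.31 times the parental level with SIVA-WT (counting interval 1.99 to 2.69, exact binomial) and 2.92 times with SIVA-D160N (2.53 to 3.39). In HCC1954 it was 1.12 times the parental level with SIVA-WT (1.02 to 1.23) and 2.47 times with SIVA-D160N (2.27 to 2.69), so the SIVA-D160N library was also 2.22 times the SIVA-WT library. MDA-MB-231 had the opposite order, with parental cells at 1.93 times the SIVA-WT library (1.77 to 2.12) and 2.22 times the SIVA-D160N library (2.02 to 2.44). In SKOV3 the parental library was 1.97 times the SIVA-WT library (1.06 to 3.75) and 2.15 times the SIVA-D160N library (1.12 to 4.3), on 30 counts or fewer. These intervals cover counting error between 2 libraries only, and they do not include the variation between cultures, which was not measured. The log2 ratios of BIRC2, the neighbour, lay between -0.33 and 0.4 in every line.

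Because BIRC3 is an NF-κB target and its promoter window holds κB matches, a list of 18 other NF-κB targets was set beside it, of which 17 were tested. None of them was called between conditions. At an unadjusted edgeR p under 0.05 there were 0 for SIVA-WT vs parental (all genes 2.54%). There was 1 each for SIVA-D160N vs parental (all genes 14.2%) and SIVA-D160N vs SIVA-WT (all genes 6.88%). Within MDA-MB-231, 6 of the 17 were past 2-fold lower with SIVA-D160N than in the parental library and 0 higher. The median log2 ratio was -0.66, and 6.82% of all tested genes were past 2-fold in either direction. With SIVA-WT 5 were lower and 0 higher (median -0.47, all genes 4.57%). In HCC1954 3 were higher and 0 lower with SIVA-D160N (median 0.28, all genes 10.2%). There 1 was higher and 0 lower with SIVA-WT (median 0.06, all genes 4.49%). In OVCAR8 again 3 were higher and 0 lower with SIVA-D160N (median 0.16, all genes 3.51%). With SIVA-WT, where BIRC3 was 2.31 times its parental level, only REL was higher and 0 were lower (median 0.22, all genes 3.16%). In SKOV3 none passed 2-fold in any ratio (all genes 3.09% to 8.74%).

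CXCL8, a neutrophil chemokine, was past 2-fold in the same direction as BIRC3 in the 3 lines, and was picked out after its values were seen. It was at 11.2 CPM in parental and 2.06 CPM in SIVA-D160N cells of MDA-MB-231, at 18 and 48.3 CPM in HCC1954, and at 0.63 and 2.2 CPM in OVCAR8. TNFAIP3 and RELB were also chosen after their values were seen. TNFAIP3, which encodes the NF-κB brake A20, was at 8.16 CPM in parental and 37.1 CPM in SIVA-D160N cells of HCC1954. RELB, an NF-κB subunit that is also a target, was at 14.8 CPM in the MDA-MB-231 parental library and at 5.81 and 5.1 CPM in its transfectants. Other targets went against BIRC3, none of them past 2-fold. With SIVA-D160N against parental, TNFAIP2, ICAM1 and NFKBIA were at log2 ratios of -0.44, -0.35 and -0.31 in HCC1954. BCL3 and IER3 were at -0.5 and -0.39 in OVCAR8, and SOD2 was at 0.28 in MDA-MB-231. Across lines, 8 of the 17 targets were at their lowest in SKOV3, as BIRC3 was, and 2 at their highest, while 7 were lowest in OVCAR8 and 1 each in MDA-MB-231 and HCC1954. TNFAIP3 and ICAM1 were at mean log2 CPM of 0.34 and -2.87 in SKOV3, their lowest, and CXCL1 was at 6.32, its highest.

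**Figure D4:**
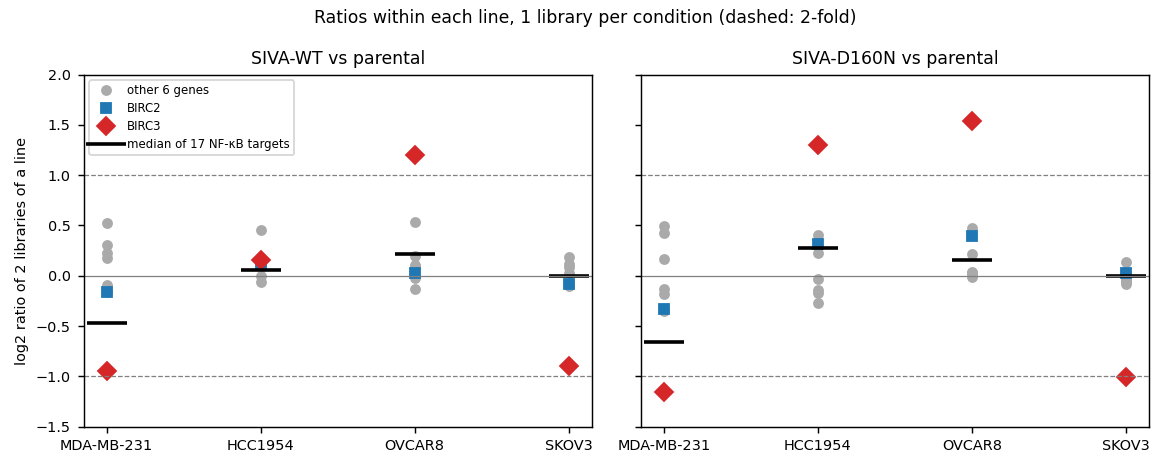
Log2 ratio of the SIVA-WT (left) and SIVA-D160N (right) library to the parental library of each line. Diamonds are BIRC3, squares BIRC2, grey circles the other 6 genes and bars the median of the 17 NF-κB targets, and the dashed lines mark 2-fold. BIRC3 with SIVA-D160N is at 1.3 in HCC1954 and 1.54 in OVCAR8 but at -1.15 in MDA-MB-231 and -1.01 in SKOV3, while the other genes stay within 2-fold.

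The rest of the cascade was followed with a list of 34 genes, of which 30 were tested: 5 other caspases, 4 other BIRC genes, cytochrome c and IAP antagonists (3), death receptors, ligands and adaptors (14) and caspase substrates (4). None was called between conditions in any comparison. At an unadjusted p under 0.05 there were 0 for SIVA-WT vs parental (all genes 2.54%), 8 for SIVA-D160N vs parental (2 higher, 6 lower, all genes 14.2%) and 3 for SIVA-D160N vs SIVA-WT (all lower, all genes 6.88%). The median log2 fold changes of the 30 were -0.02, 0.04 and 0.05 (all genes -0.005, -0.009 and -0.003). The 3 genes of the last comparison, named after their values were seen, were TNFSF10 (the death ligand TRAIL), TNFRSF25 (a death receptor) and CASP1 (an inflammatory caspase). TNFSF10 with SIVA-D160N was at -1.37 ± 0.4 against SIVA-WT and -1.62 ± 0.41 against parental (edgeR, adjusted p = 0.719 and 0.166). It passed the filter on low counts only with HCC1954 included. Its values therefore rest on that line, and its direction in the other lines is not counted. TNFRSF25 was at -0.52 ± 0.17 and -0.59 ± 0.17, lower in 4 of 4 lines (adjusted p = 0.719 and 0.209), and CASP1 at -0.65 ± 0.26 and -1.03 ± 0.26, lower in 3 of 4 (adjusted p = 0.719 and 0.161). Without HCC1954, TNFRSF25 was at -0.54 and -0.74 and CASP1 at -0.15 and -0.64, and TNFSF10 did not pass the filter on low counts. Between lines, 20 to 24 of the 30 were called per line pair, where 64.1% to 70.8% of all genes were.

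Genes within 250 kb of the 8 were compared by their line means, 40 distinct tested genes in all. CFLAR encodes the CASP8 inhibitor c-FLIP and lies 6.5 kb from CASP10. It was at 91.2 CPM in OVCAR8 and at 54.3 to 58.2 CPM in the other lines. OVCAR8 had the lowest means of CASP8 and CASP10, but did not differ beyond its spread from HCC1954 in CASP8 or from SKOV3 in CASP10. On the other side of CASP8, TRAK2 and STRADB were lower in HCC1954 and OVCAR8 (41.6 and 47.6 CPM for TRAK2, 16.3 and 13.3 CPM for STRADB) than in MDA-MB-231 and SKOV3 (61.1 and 95.9 CPM, 35.7 and 31.2 CPM), the same split as CASP8. CASP10 did not share it, although it lies between CFLAR and CASP8.

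At the IAP locus, the low BIRC3 of SKOV3 (0.522 CPM on average) went with smaller differences in the genes around it. YAP1, the Hippo pathway coactivator, was also lowest in SKOV3, at 150 CPM against 224, 426 and 229 CPM in MDA-MB-231, HCC1954 and OVCAR8, and its correlation with BIRC3 over the 12 libraries was 0.81 (0.88 with line means subtracted). TMEM123 was likewise lowest in SKOV3, at 266 CPM against 338, 1160 and 411 CPM in the same order. BIRC2 was at 107 CPM in SKOV3, within the spread of MDA-MB-231 and OVCAR8. All 3 neighbours had their highest line mean in HCC1954. BIRC3 did too, through its SIVA-D160N library (49.2 CPM). In parental cells BIRC3 was higher in MDA-MB-231 than in HCC1954 (33.2 against 19.9 CPM). Over the 3 conditions these lines did not differ beyond their spread in BIRC3 (edgeR, adjusted p = 0.459). Next to CASP6, PLA2G12A, 0.2 kb away, was at 12.5 and 17.2 CPM in MDA-MB-231 and OVCAR8 and at 31.2 and 34.4 CPM in HCC1954 and SKOV3, the same low and high lines as CASP6. CFI, complement factor I, 21.2 kb from CASP6, had the same order of HCC1954 over SKOV3 over the rest but a far wider range, from 205 CPM in HCC1954 to 0.00842 CPM in MDA-MB-231, which is under the limit of 3 counts. IKBIP, 0.5 kb from APAF1, was lowest in HCC1954 (22.3 CPM, against 83.6 to 102 CPM), as APAF1 was. Other neighbours did not follow the gene beside them. GAR1, 105.7 kb from CASP6, had a correlation of -0.82 with it over the 12 libraries. DNAJC16, 1.9 kb from CASP9, had one of 0.38.

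**Figure D5:**
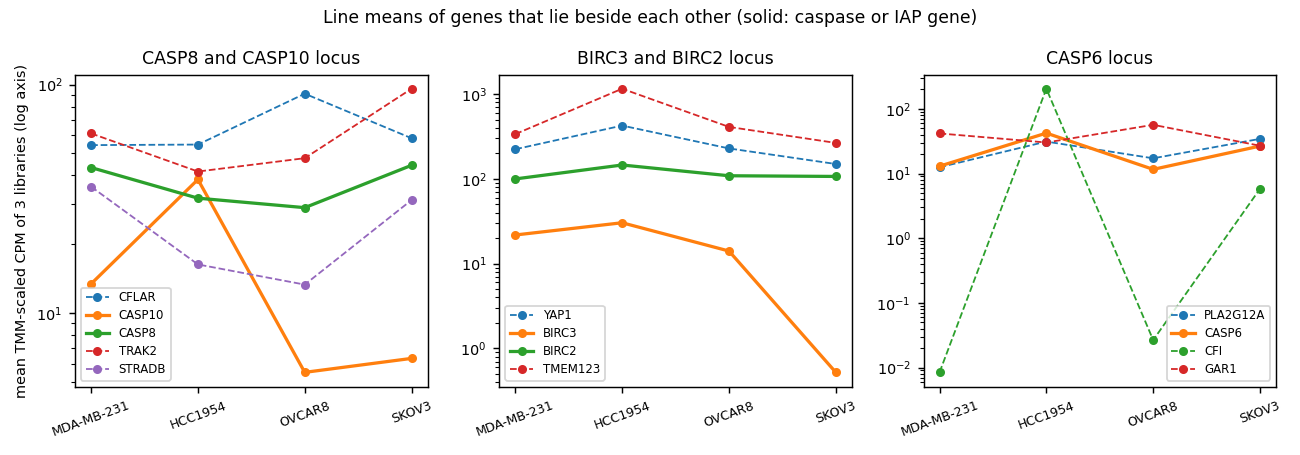
Mean TMM-scaled CPM of 3 libraries per line (log axis) for genes that lie beside each other at 3 loci. Solid lines are the caspase and IAP genes, dashed lines their neighbours, and lines only join the points of a gene. CASP8 falls and rises with TRAK2 and STRADB while CASP10 peaks in HCC1954, and at the IAP locus YAP1, TMEM123 and BIRC3 are lowest in SKOV3, BIRC3 at 0.522 CPM.

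The tested genes whose log2 CPM was most like that of each of the 8 over the 12 libraries, by Pearson correlation, were SPTBN1 for CASP8 (r = 0.986), RP11-58O9.2 for CASP10 (0.989), TCTN1 for CASP9 (0.995), ACSL1 for CASP6 (0.987), SASS6 for APAF1 (0.954), ACO1 for DIABLO (0.968), BLZF1 for BIRC2 (0.968) and EXPH5 for BIRC3 (0.986). The libraries fall into 4 sets of 3 by line, so these values mostly compare 4 line levels and are descriptions over 17211 candidates. After the mean of each line was subtracted, the closest genes were others: PICALM for CASP8 (0.98), SLFN13 for CASP10 (0.93), MST1P2 for CASP9 (0.945), TCF7L1 for CASP6 (0.96), CA2 for APAF1 (0.979), PSRC1 for DIABLO (0.925), VPS37A for BIRC2 (0.953) and ARHGAP18 for BIRC3 (0.992). Among the 8 themselves, CASP8 and CASP9 ran together across lines (0.89) but not within them (-0.34). Within lines, BIRC3 ran with CASP8 (0.85) and BIRC2 (0.77) and against DIABLO (-0.68) and CASP6 (-0.62). Similar values were found in pairs without BIRC3: CASP8 with BIRC2 (0.83), CASP10 with CASP9 (0.78) and CASP6 with DIABLO (0.74). All these values share libraries and scaling, and they carry no test.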

How the data were processed

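RNA had been extracted with Trizol and made into stranded mRNA libraries (TruSeq). The authors aligned reads to GRCh38 with STAR (version 2.5.3a in the submitters' processing notes), took counts per gene from its output and deposited the counts without normalization. The annotation release is not given in the sources used here. The deposited CPM table was not used. Each of the 12 columns matched 1 library, 0 columns were left over, and 0 of 66 library pairs were identical. Total counts of 35791455 to 45890398 set the precision. With 1 library per line and condition, p-values measure only the spread between these libraries.

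The model was edgeR's (version 4.0.16, in R 4.3.3; quasi-likelihood F test, TMM, filterByExpr by condition, terms for line and condition, Benjamini-Hochberg adjustment over 17211 genes). The script was tested on simulated data. The line is the replicate block: libraries of one line deviated together from their condition's mean (correlations 0.929 to 0.968). Libraries of different lines and conditions were at -0.433 to -0.191. Subtracting a mean over the lines itself pushes such values below 0, so they add nothing to the choice of block. Ratios within a line used a prior count of 2. DESeq2 1.42.0 and limma-voom (limma 3.58.1) were alternatives, beside other normalizations, filters, thresholds and libraries left out. Intervals are at 95%. Figures used matplotlib 3.10.9.

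The genes named are the 8 members, up to 3 genes most like each, tested genes within 250 kb, and list genes past the thresholds, except where stated. Members and lists were chosen with earlier results of these data known. Gene positions, neighbours and promoters come from RefSeq (GRCh38.p14).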

Additional observations from a re-analysis of the deposited data

Results flagged for a closer look

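In each group of 4 lines, every gene was checked for a library or ratio that lies apart from the other 3, in 48 sets of values. Such a value was held by 5 sets. A rate of 1 in 20, or 2.4 sets, would apply to independent draws from one population. Most genes differ between lines and the sets share libraries, so the 5 cannot be set against that rate. BIRC3 in the SIVA-WT library of SKOV3 was at a log2 CPM of -1.14, against 3.98 to 4.48 in the other lines. This is the low level of the whole line, with 0.795, 0.403 and 0.369 CPM in its parental, SIVA-WT and SIVA-D160N libraries. APAF1 in the parental library of HCC1954 was at 4.48, against 5.13 to 5.17. BIRC2 in the SIVA-WT library of HCC1954 was at 7.15, against 6.64 to 6.68, and DIABLO in the SIVA-WT library of MDA-MB-231 at 2.75, against 2.03 to 2.13. For CASP6 the log2 ratio of SIVA-WT to parental was 0.52 in MDA-MB-231 and -0.02 to 0.03 in the other lines, so that the CASP6 difference over the lines, 0.12, was 0 without MDA-MB-231.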

How the results depend on the processing

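The count of the 8 genes called between conditions was 0 under each of the 11 alternatives and for each comparison, and 0 for the difference between tissues under limma-voom. With no replicate block it was also 0. None of the 240 log2 fold changes between conditions crossed the thresholds, 11 changed sign, and the lowest adjusted p was 0.225 (APAF1, limma-voom). Leaving out each line in turn gave values on both sides of 0 for SIVA-WT vs parental in CASP8 (-0.05 to 0.05), DIABLO (-0.03 to 0.1), BIRC2 (-0.07 to 0.02) and BIRC3 (-0.6 to 0.37), for SIVA-D160N vs parental in CASP6 (-0.11 to 0.12) and BIRC3 (-0.16 to 0.99), and for SIVA-D160N vs SIVA-WT in DIABLO (-0.03 to 0.05). CASP6 in SIVA-D160N vs parental was also at -0.01 with limma-voom and -0.08 with no replicate block. The cause was not tested. The count past 2-fold within a line stayed at 6 with a prior count of 0.5 and with RLE size factors. Between lines, requiring also a log2 fold change of 1.5 in either direction gave 2 (MDA-MB-231 vs HCC1954), 0 (vs OVCAR8), 1 (vs SKOV3), 2 (HCC1954 vs OVCAR8), 2 (HCC1954 vs SKOV3) and 2 (OVCAR8 vs SKOV3) calls, on a stricter threshold. Leaving out the libraries of 1 condition gave, in the same order, 5 to 8, 3 to 4, 3 to 6, 3 to 5, 4 to 7 and 4 to 5 calls, on fewer samples. Of the 336 values between lines, 17 lost their call (11 without the SIVA-WT libraries, 5 without the SIVA-D160N libraries, 1 with all genes of at least 1 count), 6 gained one (all BIRC3), and 7 changed sign, none of them called. Without the libraries of 1 condition these were BIRC3 in MDA-MB-231 vs HCC1954 (-1.07 to 0.25) and vs OVCAR8 (-0.13 to 1.15), BIRC2 in MDA-MB-231 vs OVCAR8 (-0.28 to 0.09), MDA-MB-231 vs SKOV3 (-0.17 to 0) and OVCAR8 vs SKOV3 (-0.09 to 0.11), and DIABLO in OVCAR8 vs SKOV3 (-0.04 to 0.06). With all genes of at least 1 count CASP8 in MDA-MB-231 vs SKOV3 was at 0. CASP8, APAF1, DIABLO, BIRC2 and CASP9 lost calls, and CASP10 and CASP6 lost none. Depth limits BIRC3 in SKOV3 most, with 15 to 30 counts.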
